A study of Rattus norvegicus with 10 samples.

Results

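The genes described here encode the junction proteins and transporters of the blood-spinal cord barrier, the sealed wall of the spinal microvessels. The 9 genes listed were Abcb1a, Abcg2, Abcc1, Abcc4, Slco1a4, Slc2a1, Cldn5, Ocln and Tjp1. Their mRNA probes were taken from a rat array by the RefSeq accession each probe carries. Of the 15323 mRNA probes, 14274 could be given a RefSeq gene symbol, and 8 of the 9 genes had a probe among them, 1 probe and 1 spot per gene. No probe was matched to Abcc4, which is not analysed here. The rule that picked the probes used no measured value, but the genes were listed with earlier results of these data known. RNA came from the lumbar spinal cord of male Sprague Dawley rats weighing 240 to 260 g, whose age the labels do not give. The 5 rats of the morphine tolerance group (MT, rats 1 to 5) had received 10 µg of morphine in 10 µl by intrathecal injection, 2 times a day for 7 days. The 5 rats of the normal saline group (NS, rats 6 to 10) had received 10 µl of saline on the same schedule. By the study's methods, rats were anesthetized on day 8, 1 hour after a further morning injection of morphine or saline, and the tissue was collected. Both groups therefore share the intrathecal injections, and 1 time point was sampled. Effects of the last dose and of the earlier doses cannot be told apart.

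Capillary endothelial cells of the spinal cord, like those of the brain, are joined by tight junctions, and pericytes and astrocyte endfeet surround them. Claudins and occludin span the junction between neighbouring cells, and zonula occludens proteins tie them to the actin skeleton. Because little passes between the cells, nutrients enter through carriers of the solute carrier family. ATP-binding cassette (ABC) pumps return many lipophilic drugs to the blood, and morphine is itself a known substrate of P-glycoprotein, the product of the Abcb1 genes. The array measured RNA of whole tissue, in which fewer cells of a type and less RNA per cell cannot be told apart.

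Values are log2 intensities after quantile normalization, and a difference is the mean of the MT group minus the mean of the NS group on that scale. They compare 1 probe between rats and say nothing of the amount of one gene against another. The 10 arrays lay on 3 slides, identified by their scan times. Slide 1 held MT rats 1, 3, 4 and 5, slide 2 held MT rat 2 with NS rats 6, 7 and 10, and slide 3 held NS rats 8 and 9. Every difference given below with slide as a fixed block therefore compares only MT rat 2 with NS rats 6, 7 and 10. The arrays of slide 3 were dimmer, with 58.6% and 63.8% of spots well above background against 77.4% to 83.9% on the other arrays. All 8 genes were well above background on all 10 arrays. Markers of the labelled tissue were present too, since 10 of 10 oligodendrocyte, 9 of 11 neuronal and 10 of 12 astrocyte markers passed the filter on dim probes, and no probe was matched to the others.

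Most of the barrier genes differed little between the groups. Abcg2, which encodes the efflux pump breast cancer resistance protein, was the exception in size, with a mean 0.80 lower on the log2 scale in the MT group. The tight junction adaptor Tjp1 was 0.20 lower, with a small spread. The differences of the other 6 genes lay between -0.13 and 0.19. The study's methods give its criteria as a log2 fold change over 1.5 with a P under 0.05, a form that called 0 of 8 genes beside 0.108% of the 20284 RNAs tested. Since its tables list folds on the linear scale, the criteria were read here as a linear fold over 1.5 with an unadjusted P under 0.05. In this reading they called 1 of 8 genes, a lower one, beside 2.74% of the RNAs, 0.996% lower and 1.74% higher in the MT group. No gene passed an adjusted p of 0.05 in limma, beside 0.197% of all RNAs, and the lowest adjusted p was 0.267. An unadjusted P below 0.05 was found for 2 of 8 genes, beside 16.4% of all RNAs. The adjusted threshold was not passed under any of the alternatives either. In no gene did all MT rats lie on one side of all NS rats, as was the case for 5.64% of all RNAs. The means of 3 genes were higher and of 5 lower in the MT group. The median absolute difference was 0.14 over the 8 genes and 0.15 over all RNAs. For 7 of 8 genes the 95% interval of the fit without slide lay inside a fold of 1.5 in either direction, Abcg2 being the exception. These intervals take no account of slide.

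**Figure D1:**
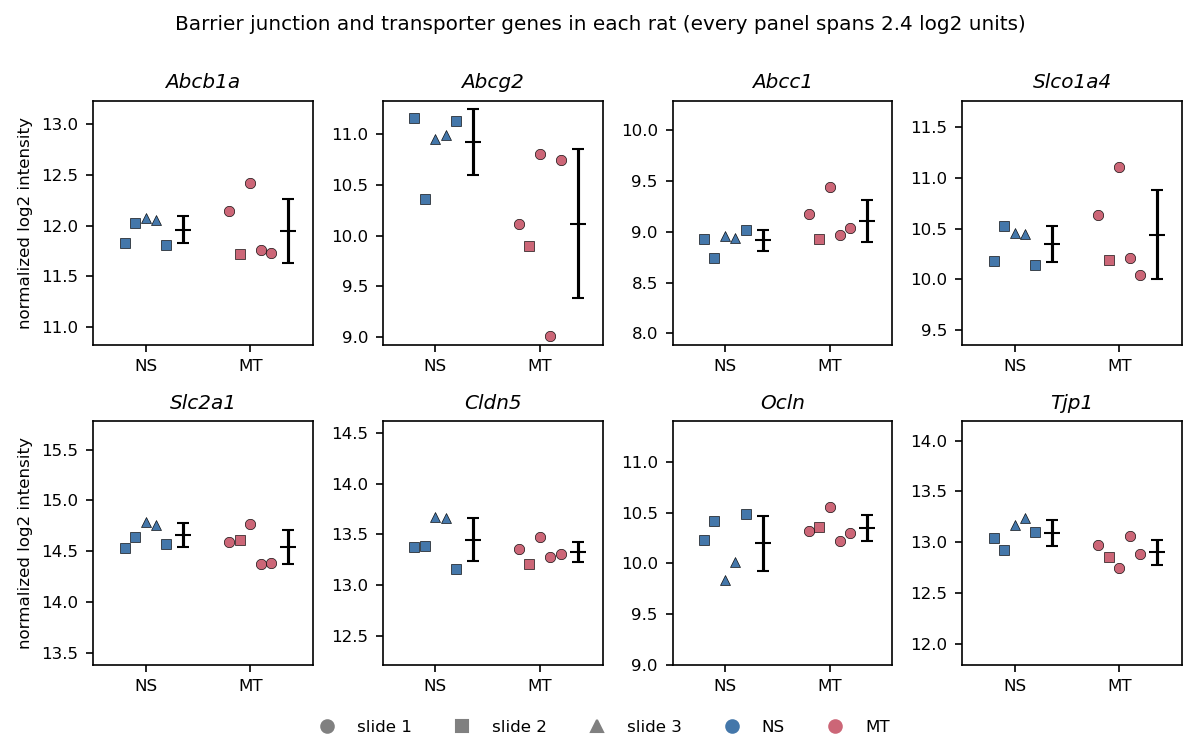
Normalized log2 intensity (vertical axis) of each of the 8 genes in every rat, by group (horizontal axis); marker shapes give the slide, and bars the mean and SD of 5 rats. Abcg2 spans 9.01 to 10.80 in the MT group and 10.36 to 11.16 in the NS group, while the groups of the other genes overlap more closely.

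Abcg2 (chromosome 4, 89006056 to 89132915, GRCr8) encodes a half-transporter that works as a dimer on the blood-facing membrane of barrier endothelium. In MT rats 1 to 5 its normalized log2 intensity was 10.12, 9.90, 10.80, 9.01 and 10.75. In NS rats 6 to 10 it was 11.16, 10.36, 10.95, 10.99 and 11.13. The groups overlapped only through NS rat 7: the other 4 NS rats lay above every MT rat, and MT rats 1, 2 and 4 lay below every NS rat. Means were 10.12 ± 0.73 for MT and 10.92 ± 0.32 for NS (SD, n = 5 each). The MT mean was thus 0.574 of the NS mean on the linear scale (95% interval 0.348 to 0.947). The log2 difference was -0.80 (SE 0.32, unadjusted limma P 0.033, adjusted p 0.267). The 2-sided exact permutation test over all assignments of the rats to the groups gave p = 0.0556, where the smallest possible value is 0.00794.

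The size of the Abcg2 difference leaned on MT rat 4, the lowest of the 10. Without this rat the difference was -0.52, and the unadjusted limma P was 0.0517. On slide 2, which held both groups, MT rat 2 at 9.90 lay below the 3 NS rats, which ranged from 10.36 to 11.16. With slide as a fixed block the difference was -0.98, which restates this comparison within slide 2 and rests on MT rat 2. Without slide 3 it was -0.77 with an unadjusted limma P of 0.0972. The direction was therefore the same without slide 3, and the call by the criteria was lost. The criteria were met in 12 of 23 alternative settings. Those that changed only the filter, test, variance trend, outlier handling or probe averaging left the difference at -0.80 by construction. They are therefore no independent check of its size or direction.

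The 250 bases before the RefSeq start of Abcg2, the one gene that met the criteria, are shown 5′ to 3′ on the gene's strand (GRCr8, chr4:89075224-89075473, plus strand). This start lies inside the annotated span of the gene. Capitals mark matches on either strand to any of 5 short motifs: the GC box GGGCGG, the CCAAT box CCAAT, the TATA box TATAAA, the AP-1 site TGANTCA and the xenobiotic response core GCGTG.
Abcg2: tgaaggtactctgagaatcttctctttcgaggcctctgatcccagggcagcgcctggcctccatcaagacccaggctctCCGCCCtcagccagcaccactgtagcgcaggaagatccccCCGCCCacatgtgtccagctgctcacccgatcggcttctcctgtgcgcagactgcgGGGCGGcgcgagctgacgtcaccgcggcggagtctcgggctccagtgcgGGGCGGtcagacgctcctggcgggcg
The window held 4 matches to the GC box and none to the other motifs. Of 33469 windows of the same length, 30.5% held the GC box, 34.0% the CCAAT box, 12.9% the TATA box, 6.3% the AP-1 site and 25.9% the xenobiotic response core. A match describes letters only.

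Abcb1a (chromosome 4, 26312403 to 26488456) encodes P-glycoprotein, the pump most studied at the barrier. The probe read 12.14, 11.72, 12.42, 11.76 and 11.73 in MT rats 1 to 5. NS rats 6 to 10 read 11.83, 12.03, 12.07, 12.06 and 11.81. The MT rats fell on both sides of the NS rats, 3 below all of them and 2 above all of them. Means were 11.95 ± 0.32 for MT and 11.96 ± 0.13 for NS (SD, n = 5 each). The difference was -0.01 (95% interval -0.33 to 0.32, adjusted limma p 0.986). In this fit without slide the interval spans 0.795 to 1.25 of the NS level and takes no account of slide. With slide as a fixed block the difference was -0.17.

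Abcb1b, the second P-glycoprotein gene of rodents, was near the detection limit, and its probe was well above background in 4 MT and 2 NS arrays. Its difference of 0.18 had an interval of -1.23 to 1.59. The probe sequences were not used here, so whether either probe separates these closely related genes was not tested.

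Abcc1 (chromosome 10, 1022041 to 1162431) encodes multidrug resistance-associated protein 1, an exporter of glutathione and glucuronide conjugates. Log2 values were 9.18, 8.93, 9.44, 8.97 and 9.04 in MT rats 1 to 5. They were 8.93, 8.74, 8.96, 8.94 and 9.02 in NS rats 6 to 10. In the MT group 3 of 5 rats lay above every NS rat, and the other 2 lay inside the NS range. The difference was 0.19 (SE 0.11, 95% interval -0.04 to 0.43, adjusted limma p 0.387). With slide as a fixed block it was 0.03.

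Slco1a4 (chromosome 4, 176441104 to 176495846) encodes an organic anion transporting polypeptide found on both membranes of barrier endothelium. The log2 values of the probe were 10.63, 10.19, 11.11, 10.21 and 10.04 in MT rats 1 to 5. NS rats 6 to 10 had values of 10.18, 10.53, 10.46, 10.45 and 10.14. MT rats 1 and 3 stood above all NS rats, as they did for Abcb1a. The difference was 0.08 (SE 0.19, 95% interval -0.35 to 0.52, adjusted limma p 0.85). It was -0.09 with slide as a fixed block and -0.08 without MT rat 3, so it has no settled sign.

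Slc2a1 (chromosome 5, 138002522 to 138030742) encodes GLUT1, the carrier that brings glucose across the barrier. On the log2 scale the probe read 14.59, 14.61, 14.77, 14.37 and 14.38 in MT rats 1 to 5. In NS rats 6 to 10 it read 14.53, 14.64, 14.79, 14.76 and 14.57. MT rats 4 and 5 were the lowest of the 10, and the other rats were mixed. The difference was -0.12 (SE 0.10, 95% interval -0.33 to 0.10, adjusted limma p 0.568), and with slide as a fixed block it was 0.03.

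Cldn5 (chromosome 11, 95717172 to 95718598) encodes claudin-5, the main claudin of endothelial tight junctions. The log2 values were 13.36, 13.21, 13.47, 13.28 and 13.31 in MT rats 1 to 5. They were 13.38, 13.39, 13.67, 13.66 and 13.16 in NS rats 6 to 10. The 2 values above every MT rat were those of NS rats 8 and 9, the arrays of slide 3. The difference was -0.13 (SE 0.11, 95% interval -0.37 to 0.11, adjusted limma p 0.571). Without slide 3 it was 0.01.

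Ocln (chromosome 2, 33391303 to 33442207) encodes occludin, a regulatory protein of the junction strands. Its probe read 10.32, 10.36, 10.56, 10.22 and 10.30 in MT rats 1 to 5. Values of 10.23, 10.42, 9.84, 10.01 and 10.49 were found in NS rats 6 to 10. Here the arrays of slide 3 were the lowest of the 10, and the other rats of both groups overlapped. The difference was 0.15 (SE 0.13, 95% interval -0.13 to 0.44, adjusted limma p 0.572). Without slide 3 it was -0.02. Before normalization the Ocln spot read 570.3 and 727.5 on slide 3 against 1281 to 1617 on the other slides. The Abcc1 spot also read lower there, 257.7 and 377.8 against 461.6 to 738.2. So did the Slc2a1 spot, 14870 and 20220 against 22430 to 31360. The part of array brightness in the Cldn5 and Ocln differences was not tested.

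Tjp1 (chromosome 1, 128260330 to 128505018) encodes ZO-1, the scaffold that links claudins and occludin to actin. Its log2 values were 12.97, 12.85, 12.74, 13.06 and 12.88 in MT rats 1 to 5. In NS rats 6 to 10 they were 13.04, 12.92, 13.17, 13.24 and 13.10. MT rats 2, 3 and 5 lay below every NS rat, and MT rats 1 and 4 lay inside the NS range. Means were 12.90 ± 0.12 for MT and 13.09 ± 0.12 for NS (SD, n = 5 each). The difference was -0.20 (SE 0.09, 95% interval -0.39 to -0.00), or 0.873 of the NS level. Its unadjusted limma P was 0.0454, its adjusted p 0.297 and its exact permutation p 0.0476. Without slide 3 the difference was -0.12 with an unadjusted P of 0.213. The difference had the same sign in all 23 alternatives and an unadjusted P below 0.05 in 10 of them. Those that changed only the filter, test, variance trend, outlier handling or probe averaging left it at -0.20 by construction.

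**Figure D2:**
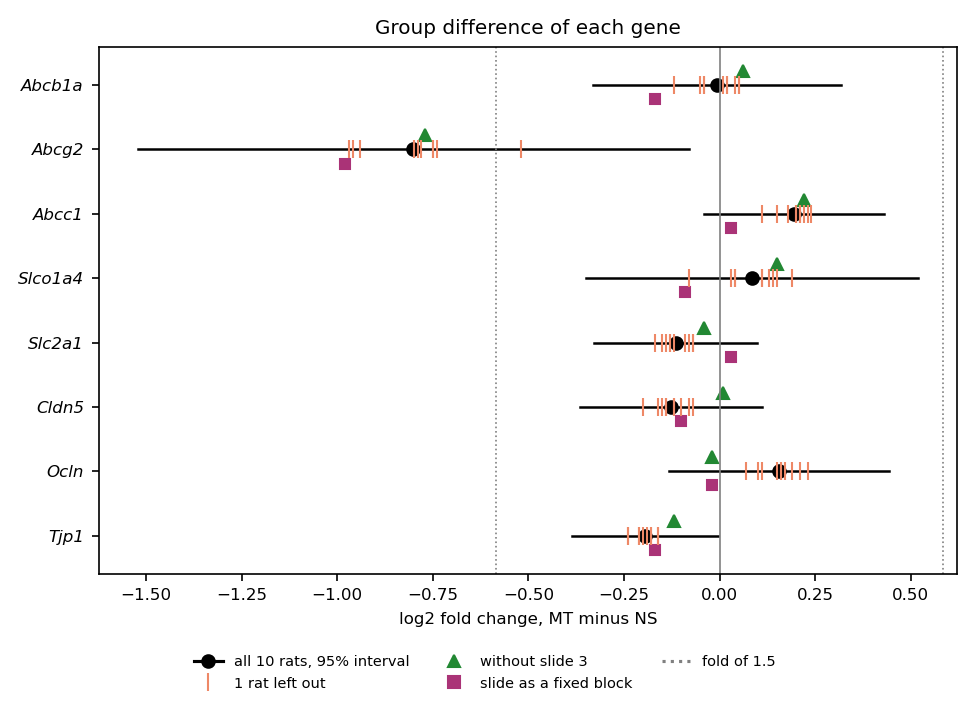
Log2 difference between the MT and NS groups (horizontal axis) for each gene: circles and lines give the limma estimate and 95% interval over all 10 rats, ticks the values with 1 rat left out, triangles the value without slide 3 and squares that with slide as a fixed block. Dotted lines mark a fold of 1.5, which the Abcg2 estimate alone passes, at -0.80, and which it no longer reaches without MT rat 4, at -0.52.

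Across the rats, the transporters Abcb1a and Slco1a4 varied together. Over the 10 arrays Pearson's r was 0.97 (permutation p = 9e-05, adjusted over 28 pairs of genes 0.00252). Spearman's rho was 0.83 (permutation p = 0.00441, adjusted 0.123). Without MT rats 3 and 2, the rats farthest from the median of Abcb1a, r was 0.963. It was 0.991 within slide 1, 0.899 within slide 2, each of 4 arrays, and 0.982 after the group means were taken out. This was the only 1 of 28 pairs with an adjusted permutation p for r below 0.05, and no pair passed on rho. MT rats 1 and 3 were high in both genes and MT rats 2, 4 and 5 low in both, while the group means of each gene nearly coincided.

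**Figure D3:**
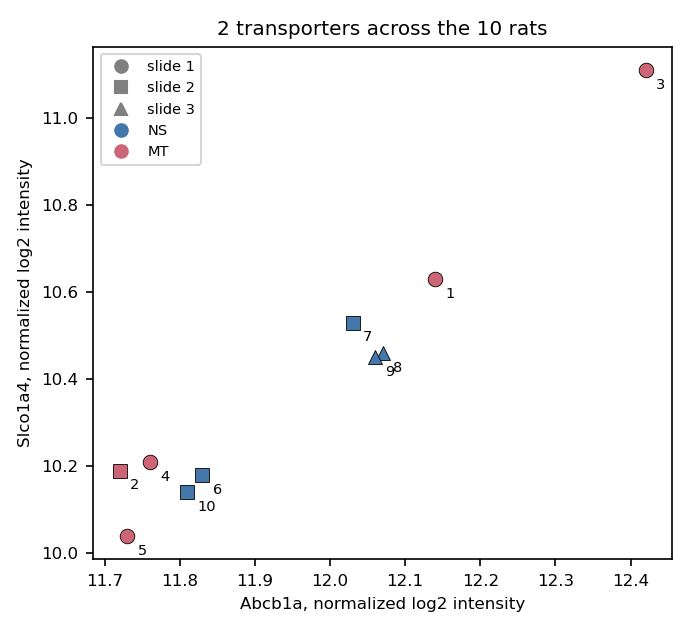
Normalized log2 intensity of Abcb1a (horizontal axis) and Slco1a4 (vertical axis) in each of the 10 rats, numbered, with colours for the group and marker shapes for the slide. The points lie along a rising line from MT rats 2, 4 and 5 to MT rat 3, with r = 0.97.

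Other mRNAs followed Abcb1a as closely. Of 12456 other mRNAs that passed the filter, 28 had a higher r with Abcb1a than Slco1a4 had. The 3 highest were Lgals9, Fibp and Tmbim6, each at r = 0.99 over 10 arrays. For Cldn5 they were Arhgap1 at 0.99, Ppil2 at 0.98 and Rpl27 at 0.98. These correlations share arrays and normalization and are given as a description. MT rat 3 had the highest MT value in 7 of the 8 barrier genes and the lowest in Tjp1.

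The upstream windows of the co-varying pair are shown in the same way (GRCr8, Abcb1a at chr4:26397649-26397898 and Slco1a4 at chr4:176495847-176496096, both minus strand). The Abcb1a start lies inside the annotated span of the gene.
Abcb1a: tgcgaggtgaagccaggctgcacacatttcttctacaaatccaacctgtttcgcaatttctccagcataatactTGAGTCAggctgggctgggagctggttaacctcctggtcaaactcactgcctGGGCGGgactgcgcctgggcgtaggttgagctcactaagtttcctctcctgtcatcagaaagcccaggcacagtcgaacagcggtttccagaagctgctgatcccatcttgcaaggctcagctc
Slco1a4: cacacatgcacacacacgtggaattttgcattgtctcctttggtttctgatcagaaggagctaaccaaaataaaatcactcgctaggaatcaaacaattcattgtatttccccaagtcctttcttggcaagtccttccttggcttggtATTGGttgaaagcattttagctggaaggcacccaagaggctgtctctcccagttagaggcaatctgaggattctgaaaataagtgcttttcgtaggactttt
The Abcb1a window held 1 GC box and 1 AP-1 site, and the Slco1a4 window held 1 CCAAT box. The windows shared none of the 5 motifs, and 54.0% of the Abcb1a bases and 42.4% of the Slco1a4 bases were G or C.

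In 7 of 28 pairs r was below 0. Ocln and Tjp1 had the lowest r, -0.748 (permutation p = 0.0114, adjusted 0.141, rho -0.673, adjusted 0.203). For this pair r was -0.466 without slide 3, -0.921 within slide 1 and 0.126 within slide 2. For Cldn5 and Ocln, r was -0.694 (permutation p = 0.0251, adjusted 0.141, rho -0.394, adjusted 0.781) and 0.13 without slide 3. Within slide 1 it was 0.978 and within slide 2 it was -0.568. As the 2 arrays of slide 3 were also those farthest from the Cldn5 median, the relation between Cldn5 and Ocln rested on them.

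The wider machinery of the barrier was described by 5 lists holding 115 genes, of which 95 were tested. Of these, 4 met the criteria, beside 2.74% of all RNAs, and 6 had groups that did not overlap, beside 5.64%. In limma 21 had an unadjusted P below 0.05, beside 16.4% of all RNAs, and none passed the adjusted threshold, although the lowest adjusted p over the alternatives was 0.0267 for Abcb4 and 0.0392 for Cav2. Other junction genes had 0 of 19 past the criteria and a median difference of -0.03. Within them Lsr, the angulin of tricellular junctions, ranged from 10.45 to 11.04 in the MT group and from 10.05 to 10.45 in the NS group, a difference of 0.46 (adjusted limma p 0.138). Afdn, the actin-binding adaptor afadin of adherens junctions, differed by -0.18 (adjusted limma p 0.269), and by 0.02 with slide as a fixed block. Cdh5, the endothelial cadherin, was well above background on 2 MT and 0 NS arrays and was not tested.

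Among other ABC transporters 0 of 19 met the criteria, with a median of -0.02. Abcb4, a phospholipid exporter beside the P-glycoprotein genes, ranged from 9.66 to 9.89 in the MT group and from 10.07 to 10.34 in the NS group. Its difference of -0.44 (SE 0.07, adjusted limma p 0.0546) was without overlap, and its unadjusted P stayed below 0.05 in all 23 alternatives. Abca7, a lipid transporter, was 0.43 higher (adjusted limma p 0.114), also without overlap.

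Of 24 other solute carriers of the barrier 1 was higher and 1 was lower by the criteria, with a median of 0.01. The nucleoside carrier Slc28a2 was 0.59 higher (adjusted limma p 0.288). It met the criteria in 11 of 23 alternatives, and with slide as a fixed block it was 0.29 higher. Slco2b1, an organic anion transporter, ranged from 11.25 to 11.88 in the MT group and from 11.80 to 12.36 in the NS group, a difference of -0.67 (adjusted limma p 0.114). Slco1c1, the thyroxine carrier related to Slco1a4, differed by -0.07 (SE 0.19).

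The 10 transcytosis genes had none past the criteria and a median of -0.05. The caveolae genes Cav2, at -0.49 (SE 0.10, adjusted limma p 0.0873), and Cav1, at -0.27 (SE 0.08, adjusted limma p 0.149), were both lower without overlap. Cav1 ranged from 12.16 to 12.48 in the MT group and from 12.55 to 12.73 in the NS group. Of 25 barrier regulators 2 were higher by the criteria and none lower, with a median of 0.08. By an unadjusted P below 0.05 alone, 5 were higher and 4 lower, beside 16.4% of all RNAs in either direction. Mmp9, a protease that can digest junction proteins and basement membrane, was 2.83 times its NS level (adjusted limma p 0.209), and Nr1i2, the xenobiotic receptor PXR that controls pump genes, was 0.80 higher on the log2 scale (adjusted limma p 0.177). Mmp2, another matrix protease, named after its values were seen, was lower without overlap, from 9.73 to 10.09 in the MT group and from 10.13 to 10.60 in the NS group, a difference of -0.51 (adjusted limma p 0.0933). Mmp9 was chosen by the study on these arrays, and its array values are no independent evidence. The study also measured Mmp9 by RT-qPCR and reported a significant change in the same direction. The Nr1i2 probe was well above background on 5 MT and 3 NS arrays, and its difference was -0.13 with slide as a fixed block.

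**Figure D4:**
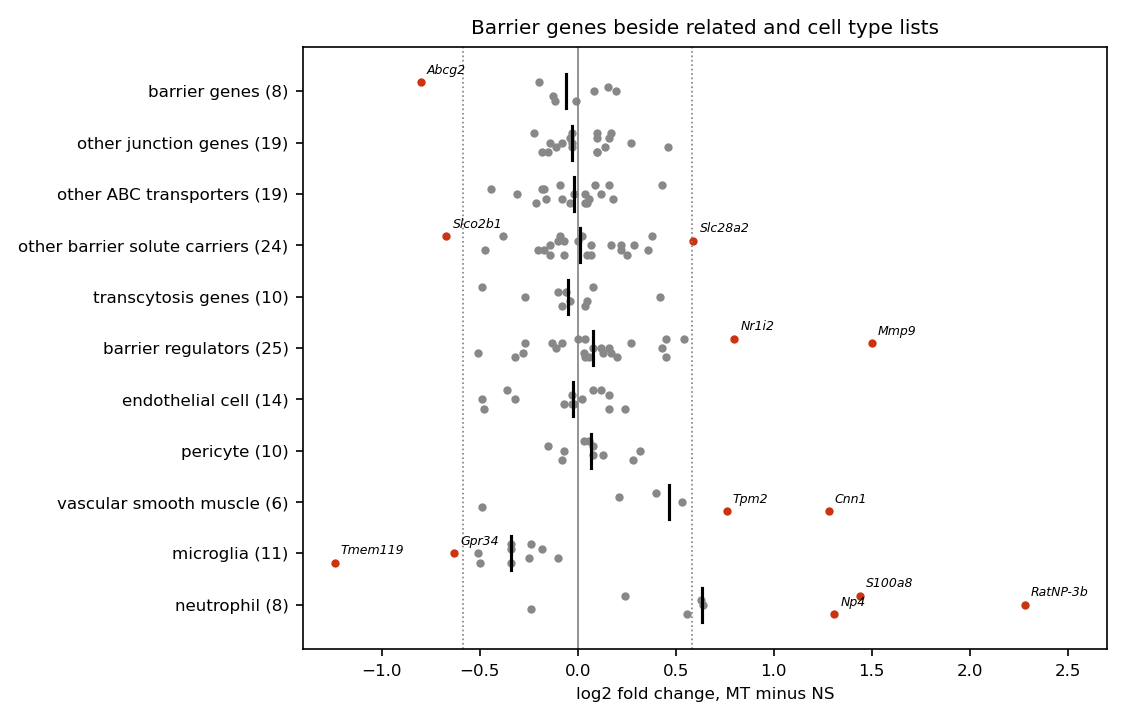
Log2 difference between the MT and NS groups (horizontal axis) of each tested gene, in rows for the 8 barrier genes, 5 lists of related genes and 5 lists of cell type markers, with the number tested in brackets. Black bars give the median of a row, dotted lines a fold of 1.5, and red points with names the genes that met the criteria; the barrier row is centred at -0.06 and the microglia row at -0.34.

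Markers of the vessel cells themselves were compared beside these genes. Of 22 endothelial markers 14 were tested, 6 higher and 8 lower, with none past the criteria and a median of -0.02. By an unadjusted limma P below 0.05 alone, 0 were higher and 4 lower, beside 16.4% of all RNAs in either direction. Their mean level per rat was 9.51 to 9.64 in the MT group and 9.48 to 9.73 in the NS group. Fli1, an endothelial transcription factor also made by microglia, differed by -0.48 (adjusted limma p 0.118). Pericyte markers had a median of 0.07 over 10 genes, with Anpep at 0.32 (adjusted limma p 0.167). Vascular smooth muscle markers had 2 of 6 past the criteria, both higher, beside 2.74% of all RNAs, and a median of 0.47. Their mean level was 9.21 to 10.04 in the MT group and 8.94 to 9.26 in the NS group. Mylk, the myosin light chain kinase, went the other way at -0.49 (adjusted limma p 0.0215).

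Among the lists of blood and glial cells, those of microglia and neutrophils had the medians farthest from 0. All 11 microglial markers were lower in the MT group, with a median of -0.34 and a mean level of 12.07 to 12.61 against 12.48 to 12.99 in the NS group. Gpr34, a microglial receptor, differed by -0.63 (adjusted limma p 0.0414). Of 13 neutrophil markers 8 were tested, 7 higher and 1 lower, the lower one at -0.24. Some of the untested markers had a probe that was well above background on 0 MT and 0 NS arrays. Of the 8 tested, 3 met the criteria, all higher, beside 2.74% of all RNAs. Their list had a median of 0.64 and a mean level of 6.57 to 7.23 against 5.83 to 6.29. The genes in the middle of this list, at 0.63 and 0.64, set the median. They were well above background on 4 MT and 1 NS and on 5 MT and 2 NS arrays, and so passed the filter mainly through the MT group. RatNP-3b, a neutrophil defensin that the study chose on these arrays, was 2.28 higher (adjusted limma p 0.0926). For this gene too the study reported a significant RT-qPCR change in the same direction. Slco2b1 is also made by microglia, and Mmp9 by neutrophils. The part of either cell type in these differences, or in that of Abcg2, was not tested.

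The remaining lists had no gene past the adjusted threshold. The median was -0.04 for astrocyte markers, with Gja1 at -0.26, and -0.11 for oligodendrocyte markers, with Cnp at -0.21. It was -0.01 for neurons, with Rbfox3 at 0.27, and -0.03 for erythrocytes, with Ahsp at 0.34. Markers of tissue around the cord had medians of -0.08 for Schwann cells, with Pmp2 at -0.26, 0.22 for leptomeninges, with Col1a2 at 0.46, and 0.29 for choroid plexus, with Clic6 at 0.77. Among these last lists 1 gene, Clic6 of the choroid plexus, met the criteria. Its probe was well above background on 5 MT and 3 NS arrays, and its difference ranged from 0.11 to 1.15 over the alternatives. Further choroid plexus genes, with differences of 0.30 and 0.18, were well above background on 5 MT and 1 NS arrays each.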

How the data were processed

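RNA of 10 lumbar spinal cords was hybridised to 1-colour rat lncRNA and mRNA arrays. The authors extracted spot signals with Agilent Feature Extraction 11.0.1.1, and the deposited scanner files hold background-subtracted intensity values per spot. The authors also deposited a table of quantile-normalized log2 values, used here as an alternative. Its r with the values used here was 0.9956 to 0.9999 per array, taken across RNAs, which are not independent replicates. The grid names rn4, while symbols and positions were taken from RefSeq GRCr8.

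Intensities were floored at 1, log2 transformed and quantile-normalized over spots that were not controls. Outlier spots were left out, and spots and then probes of an accession were averaged. An RNA was kept when 5 or more arrays had over 50% of its spots well above background, which left 20284 RNAs. Groups were taken from the sample labels and compared with limma 3.58.1 in R 4.3.3 without covariates, with Benjamini-Hochberg adjustment over all RNAs tested. Single genes were also compared with a 2-sided exact permutation test, and correlations with 100000 permutations. The scripts were tested on simulated data. Promoter windows came from the RefSeq table (GRCr8), and plots were drawn in Python.

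Genes named were the members, up to 4 genes per pathway list past the criteria or otherwise the 2 with the smallest P, 3 relatives of members, the smallest P per marker list and the 3 mRNAs most correlated with Cldn5 and Abcb1a. Some genes of the lists are not reported here, and list counts leave them out. The members and lists were chosen with earlier results of these data known. Alternatives changed the scaling, background correction, filter, test, variance model, slide handling and criterion, and left out each rat. Slide could be fitted as a fixed block only through MT rat 2 against NS rats 6, 7 and 10. The number of arrays limits the precision. The labels number the rats singly. The group p-values without slide mix the spread between these 10 rats with differences between slides. Group and slide largely coincided, since only MT rat 2 shared a slide with NS rats. With slide as a random block, the estimated correlation of arrays on the same slide was 0.465. In that fit 0 RNAs passed the adjusted threshold, against 40 without slide.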

Additional observations from a re-analysis of the deposited data

Results flagged for a closer look

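In the 18 groups of 5 rats examined for a rat far from the others, 2 stood out. Chance alone would mark about 5% of groups. The Abcg2 value of NS rat 7, 10.36, lay far below the other 4 NS rats, which ranged from 10.95 to 11.16. Without NS rat 7 the Abcg2 groups did not overlap and the difference was -0.94. The Abcb1b value of MT rat 2, 1.57, lay far below the other MT rats for a probe near the detection limit.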

How the results depend on the processing

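The count of barrier genes that met the criteria fell from 1 to 0 under the Student test of the study's methods, with slide as a fixed block, with slide as a random block, without slide 3 and with the criterion read as a log2 difference of 1.5. Leaving out each rat gave counts from 0 to 1, with 0 when MT rat 1, 2 or 4 or NS rat 6, 8, 9 or 10 was left out. The count of genes with groups that do not overlap ranged from 0 to 1, with 1 (Abcg2) without NS rat 7. No gene passed the adjusted threshold in any setting. Over 184 alternative values of the 8 genes, 168 kept the sign and 16 reversed it. The 168 include settings that could not change the sign. With 1 spot per gene, a change of only the filter, test, variance trend, outlier handling or probe averaging left the difference as it was. Abcb1a was 0.01 in the deposited table, 0.06 with array weights and 0.06 without slide 3, and ranged from -0.12 to 0.05 with 1 rat left out. Slco1a4 was -0.09 with the fixed block, -0.01 with the random block and -0.08 to 0.19 with 1 rat left out. Slc2a1 was 0.03 and Ocln -0.02 with the fixed block, and without slide 3 Ocln was -0.02 and Cldn5 0.01. Among other genes, Afdn was 0.02, Nr1i2 was -0.13 and Abcb1b -2.10 with the fixed block, Abcb1b was -0.96 with the random block, and Slco1c1 was 0.04 with array weights, 0.14 with the fixed block and 0.02 with the random block. With 1 rat left out Abcb1b ranged from -0.05 to 0.81 and Slco1c1 from -0.14 to 0.11. The Abcb1b difference of 0.81 was that without MT rat 2. This rat, at 1.57 and not well above background, is the only MT rat behind the fixed-block value of -2.10. The cause of the sign changes was not tested. Over all RNAs, 555 met the criteria, and 199 did so after normexp on the median signal (an alternative chosen after seeing the data, since the files hold no mean signal), 22 with the log2 criterion, 326 and 328 with the fixed and random block, 349 with the filter on all 10 arrays, 867 without NS rat 10 and 912 without a filter. The adjusted threshold was passed by 40 RNAs, and by 0 to 224 RNAs over the alternatives, with 0 under either block and 224 under array weights. Scaling to the 75th percentile moved the median of all RNAs to 0.07. No paired analysis was possible because the rats are numbered 1 to 10 and the groups share no number. Dim probes such as Abcb1b limit what can be read from them.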
